A study of Mus musculus with 3 samples.

Results

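Among bone-lining cells of wild-type mice, a population of cells combined a very high transcript level of Ibsp with cartilage collagen transcripts. Ibsp encodes bone sialoprotein, an acidic glycoprotein of mineralised matrix, and Col2a1 encodes type II collagen, the main fibrillar collagen of cartilage. The cells were taken from barcodes that held 200 genes or more and no more than 20% of UMIs from mitochondrial genes (a UMI, or unique molecular identifier, marks 1 captured transcript). In a member, Ibsp and Col2a1 each made up at least 1% of the UMIs, fewer than 3 of the 4 genes Sfn, Krt16, Dhrs9 and Tnfaip6 were detected, Prkg2 had fewer than 3 UMIs and Ptprc had none. In all, 2007 of 19482 kept cells met this rule. They are called Ibsp-high Col2a1 cells here, or Ibsp-high cells. Because the rule used measured transcripts, the levels of its 8 genes are a description of the choice and no test of them is given.

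The series held 3 libraries of 1 group, replicates 1, 2 and 3 of Alcam+Sca-1- bone-lining cells (BLCs). The labels gave a wild-type genotype and bone marrow as the tissue, and no treatment, age or sex. Femora, tibias and iliac bones were flushed of marrow, broken up and digested with collagenase, and the released cells were sorted by flow cytometry for surface Alcam without Sca-1 and without the blood markers CD45 and Ter119 or the endothelial marker CD31. The study's methods call the samples independent, and neither they nor the labels say how many animals gave each library. Total UMIs were 20985636, 79905165 and 69890252, from 2527, 6725 and 10230 kept cells.

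Ibsp-high cells came almost wholly from replicates 2 and 3. They numbered 712 in replicate 2, 10.6% of its kept cells with an exact 95% binomial interval of 9.86 to 11.3%, and 1291 in replicate 3, 12.6% with an interval of 11.98 to 13.3%. Replicate 1 gave 4, or 0.158% (0.0431 to 0.405%), and also no Ibsp-low chondrocyte as defined below, so every comparison rests on 2 libraries. Intervals on shares cover counting error only. The median member had 10471 UMIs and 2631.5 genes in replicate 2, and 6805 UMIs and 2034 genes in replicate 3. No barcode among the members was shared between replicate 1 and either of the other 2, and 1 was shared between replicates 2 and 3.

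In a growth plate, chondrocytes first divide in columns, then leave the cell cycle as prehypertrophic cells that make Indian hedgehog, and then enlarge as hypertrophic cells that make type X collagen. The last of these cells make mineral-regulating proteins and the collagenase Mmp13, and Runx2 and Runx3 are transcription factors that drive this sequence. Articular chondrocytes near the joint surface do not normally enter it and instead keep a matrix that stays free of mineral. Bone sialoprotein is shared between late hypertrophic chondrocytes and osteoblasts, which is why an Ibsp-high chondrocyte was set beside both chondrocytes and osteoblast-like cells here.

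A candidate name for such cells is prehypertrophic to hypertrophic chondrocytes, and their levels went against it in part. Levels are given as CPM, the counts per 1000000 UMIs of the summed cells of a library, and pairs of values are always replicate 2 first and replicate 3 second. Ihh, the Indian hedgehog gene, was at 4.59 and 4.32 CPM against 0.383 and 0.485 CPM in the Ibsp-low chondrocytes defined below. Mmp13 was at 4.05 and 1.88 against 0.843 and 1.13 CPM, and Panx3, a channel gene of prehypertrophic cells, at 2.16 and 2.66 against 9.04 and 8.32 CPM. Ihh and Mmp13 were thus low in CPM but called higher than in Ibsp-low chondrocytes, and of 5 prehypertrophic genes 3 were higher and 1 lower (2 and 1 with scaling by total UMIs). Runx2 was at 103 and 106 CPM against 382 and 441 CPM in Ibsp-low chondrocytes, and Runx3 at 12.3 and 15.7 against 148 and 165 CPM. The other side of the name was present: Spp1, Alpl, Omd, Mef2c and Col10a1 were all higher than in chondrocytes with little Ibsp. Of these, Spp1, Omd and Col10a1 are among the genes that marked the population, so their rises are no independent result. Col10a1 did not climb steadily with Ibsp, however, as set out below. The cells are therefore named by their leading genes and not by a growth plate zone.

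Spp1, Omd and Alpl, whose products regulate mineral or bind to it, are members' genes that moved in parallel with Ibsp, and the 250 bases before each RefSeq start site are shown so that this proximal sequence can be compared. They are from the GRCm38.p6 reference, 5′ to 3′ on the strand of the gene, at chr5:104434861-104435110 (plus strand), chr13:49582212-49582461 (plus) and chr4:137796385-137796634 (minus). Capitals mark letters that match a RUNX core (ACCACA, or TGTGGT on the other strand) or a CCAAT box (CCAAT, or ATTGG on the other strand).
Spp1: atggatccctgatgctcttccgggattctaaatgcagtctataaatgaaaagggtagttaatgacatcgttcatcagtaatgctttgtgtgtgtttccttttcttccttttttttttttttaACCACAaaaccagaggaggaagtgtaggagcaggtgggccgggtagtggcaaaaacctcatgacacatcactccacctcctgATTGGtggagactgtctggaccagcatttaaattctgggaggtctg
Omd: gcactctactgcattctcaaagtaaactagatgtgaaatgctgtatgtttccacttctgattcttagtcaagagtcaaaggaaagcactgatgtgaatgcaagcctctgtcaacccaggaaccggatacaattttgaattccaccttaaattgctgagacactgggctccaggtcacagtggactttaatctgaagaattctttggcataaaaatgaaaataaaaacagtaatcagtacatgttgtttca
Alpl: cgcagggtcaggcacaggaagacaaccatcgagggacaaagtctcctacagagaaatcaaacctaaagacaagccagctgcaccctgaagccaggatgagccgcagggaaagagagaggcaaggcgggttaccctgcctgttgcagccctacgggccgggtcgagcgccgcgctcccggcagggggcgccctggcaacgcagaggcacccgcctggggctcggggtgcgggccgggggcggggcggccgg
The Spp1 window held ACCACA at base -128 and ATTGG at base -46 from the start site, and the other 2 windows held neither set of letters. Of 32851 promoter windows of the same length, 14% held the RUNX letters and 33.8% the CCAAT letters, so a match is a common event and only describes the sequence.

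The levels of the 6 genes that marked the population are given first, as a description with no test. All but Ibsp also entered the comparisons below. They were picked with earlier results of these data known, so their calls and their part in the list counts are no independent result. Ibsp made up a median of 3.23% of a member's UMIs in replicate 2 and 3.34% in replicate 3, with 5th and 95th percentiles of 1.18 and 9.81% and of 1.18 and 9.15%. Omd, which encodes osteomodulin, a leucine-rich keratan sulphate proteoglycan of mineralised tissue, was at 4979 and 4905 CPM. Spp1, the osteopontin gene, was at 4489.5 and 3811 CPM. In Ibsp-low chondrocytes, Col2a1 cells with Ibsp below 0.1% of UMIs, Omd was at 666 and 576 CPM and Spp1 at 397 and 408 CPM. Chadl, a chondroadherin-like leucine-rich protein, was at 451 and 431 CPM in Ibsp-high cells and 370.5 and 357 CPM in Ibsp-low chondrocytes, the smallest contrast of the markers. Col10a1, the type X collagen gene, was at 304 and 484 CPM and came from few cells, as set out further on. Tnni2, a fast skeletal troponin gene, was at 211 and 226 CPM, while the other 7 genes of a skeletal muscle list stayed at or below 4.43 CPM and the muscle myosins Myh1 and Myh4 gave no UMI. Over 2457 genes at 50 CPM or more, 99.4% of member levels differed by less than 1.5-fold between replicates 2 and 3.

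**Figure D1:**
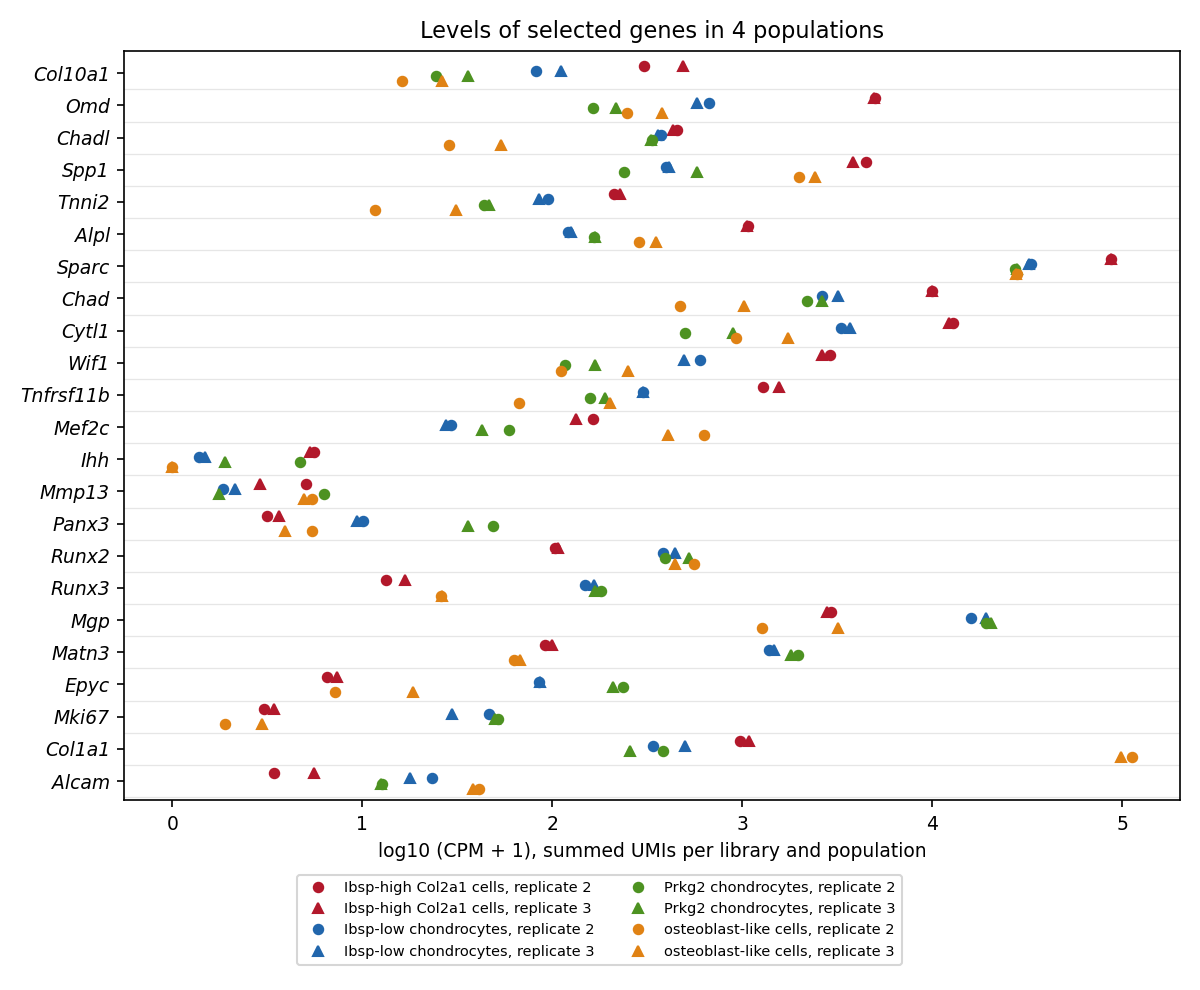
Levels of selected genes in 4 populations, as log10 of CPM plus 1 on the horizontal axis, with a point for each of replicates 2 (circles) and 3 (triangles). Ibsp-high Col2a1 cells (red) lie farthest right for Omd, Spp1, Alpl, Sparc, Chad, Cytl1, Wif1 and Tnfrsf11b, and lie left of both chondrocyte populations (blue and green) for Runx2, Runx3, Mgp, Matn3 and Mki67.

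Cells that met the rest of the rule were next ordered by their Ibsp share, from below 0.1% to 4% and over, as a description. Within the members, mineral-related genes went up with Ibsp. Spp1 went from 2433 and 1869.5 CPM in cells at 1 to 2% to 5363 and 4967 CPM at 4% and over. Alpl, which encodes the tissue-nonspecific alkaline phosphatase that frees phosphate for mineral, went from 445 and 574 to 1586 and 1470.4 CPM. Mef2c, a transcription factor gene of hypertrophy, went from 105 and 93.1 to 209 and 169 CPM. Mgp and Prg4 went the other way over the same cells, while Wif1, another superficial cartilage gene, went from 2751 and 2474 to 2964 and 2689 CPM. Mgp, whose matrix Gla protein inhibits calcification, went from 4631 and 5054 to 1696 and 1391 CPM, and Prg4, the lubricin gene of the joint surface, from 18489 and 15135 to 3862 and 4259 CPM. Cytl1, a cytokine-like secreted protein of cartilage, peaked below the threshold, at 19439 and 16618 CPM in cells with 0.5 to 1% Ibsp, and stood at 10757 and 9524 CPM in the highest range. Runx2 did not go up with Ibsp and was at 382 and 441 CPM in the lowest range and 97.6 and 103 CPM in the highest. Col10a1 did not climb steadily either. It was at 81.3 and 110 CPM in the lowest range and already at 723 and 348 CPM in cells with 0.1 to 0.5% Ibsp, below the threshold. At 2 to 4% it was at 403 and 772 CPM, and in the highest range at 149 and 342 CPM.

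The 1% threshold fell inside this gradient and not at a gap. The 56 and 94 cells just inside it, up to 0.25 percentage points above, had Omd at 4179.7 and 3442 CPM and the 48 and 106 cells just outside, up to 0.25 points below, had 3661 and 3451 CPM. Spp1 was at 2601 and 1850.2 CPM just inside and 1283 and 1405 CPM just outside. Chad, a cartilage adhesion protein, was at 7536 and 6616 CPM inside and 7051 and 7515 CPM outside. For these genes, the cells on both sides of the threshold lay between the lowest and the highest Ibsp range.

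**Figure D2:**
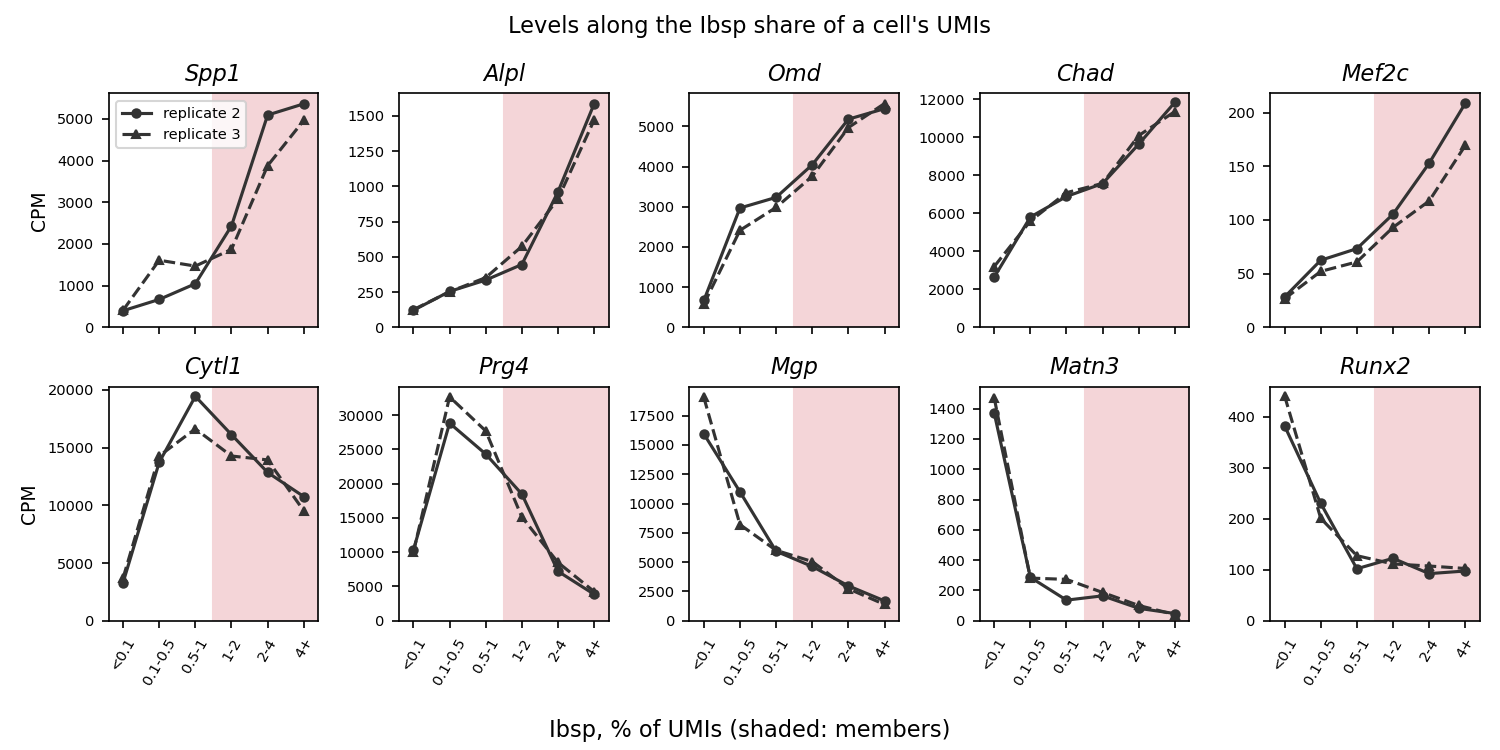
CPM of 10 genes (vertical axes, each from 0) against the Ibsp share of a cell's UMIs in 6 ranges, for replicate 2 (solid) and replicate 3 (dashed), with the members' ranges shaded. Spp1, Alpl, Omd, Chad and Mef2c climb across the shaded ranges, Cytl1 and Prg4 peak before them, and Mgp, Matn3 and Runx2 are highest in cells with almost no Ibsp.

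The first comparison asked how Ibsp-high cells differ from Col2a1 cells of the same libraries that have little Ibsp, the 2670 Ibsp-low chondrocytes, which met the rest of the same rule. UMIs were summed per library and population and tested with edgeR's quasi-likelihood test with library as a block and Benjamini-Hochberg adjustment, at 0.05. The populations were separated by Ibsp, so a gene whose level goes with Ibsp had to differ. The adjusted p-values therefore only set a difference against a spread between libraries that the fit shared over populations and genes. Each SE given here was worked out from the test statistic of the same fit. It carries that shared spread and does not measure how far apart the 2 libraries lay for a gene. A call does not by itself show that a difference repeated in both libraries. Pecam1 and S100a9, given further on, were called higher but were not higher by CPM in replicate 2. Ogn was called higher but was lower by CPM in replicate 3. Of 14886 genes tested, 2622 (17.6%) were higher and 3087 (20.7%) lower in Ibsp-high cells, with a median log2 fold change over all genes of -0.01. Fold changes were scaled by TMM, which centres on the bulk of genes, whereas the CPM values printed beside them are scaled by all UMIs. The TMM fold changes therefore lie above the ratio of the CPM values, at the median gene by 0.29 on the log2 scale here, by 0.27 in the second comparison and by 0.09 in the third and the fourth. Scaled by total UMIs, an alternative chosen after seeing the data, 1316 genes (8.84%) were higher and 5603 (37.6%) lower, so that calls of small rises depend on the scaling.

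Mineral-related genes rose in most cases. Of 14 genes in the mineralisation list, 10 were higher, 3 lower and 1 not called, with a median log2 fold change of 1.62 (9 higher and 4 lower with scaling by total UMIs, where the Phospho1 call was lost and Anxa5 fell). The higher genes include Spp1 and Omd, which are markers of the population. Alpl was at 1073 and 1052 CPM against 120.4 and 125 CPM, a log2 fold change of 3.40 ± 0.10 (SE) with an edgeR adjusted p of 1.57e-11. The 2 libraries gave almost the same summed level within each population, and these summed levels did not overlap between the populations. Single cells did overlap. An Alpl UMI was found in 90.1% of members and 43.6% of Ibsp-low chondrocytes, as unthinned means of replicates 2 and 3. Enzymes and carriers of phosphate and pyrophosphate were higher by less: Phospho1, a phosphatase of matrix vesicles, by a log2 fold change of 2.53 ± 0.96, Smpd3, a sphingomyelinase needed for mineralisation, by 2.15 ± 0.11, the pyrophosphate exporter Ank by 1.09 ± 0.15, the phosphate carrier Slc20a1 by 1.02 ± 0.12 and the pyrophosphate-making Enpp1 by 0.62 ± 0.10. Mgp was lower, at 2909 and 2775 CPM against 15949.8 and 19066 CPM, and it fell by 2.32 ± 0.23 on the log2 scale. Panx3 and the carrier Slc20a2 were the other genes that fell.

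The phosphoprotein genes that neighbour Ibsp were part of this rise. Mepe, the matrix extracellular phosphoglycoprotein of osteocytes, was at 36.8 and 20.1 CPM against 0.306 and 0.323 CPM (log2 fold change 6.72 ± 0.31). Dmp1, dentin matrix protein 1, was at 19.4 and 31.4 CPM against 1.15 and 1.62 CPM (log2 fold change 4.47 ± 0.21). Both were low next to Spp1, in counts taken at the 3′ end of transcripts, which do not grow with transcript length. The log2 fold change of Spp1 was 3.67 ± 0.25. These genes lie with Ibsp in chr5:104079111-104441050 of GRCm38 (GENCODE coordinates), a stretch chosen after the values were seen. Of the 8 genes that the files list there, 5 were tested and 5 were higher: Sparcl1, Dmp1, Gm31048, Mepe and Spp1. Gm31048, an unnamed gene model between Dmp1 and Ibsp, was at 22.8 and 25 CPM in Ibsp-high cells against 0.306 and 0.323 CPM. Dspp, the dentin gene of the cluster, gave no UMI. The second stretch noticed in this way was chr13:49504810-49624501, where Ecm2, Aspn, Omd and Ogn stand in a row and all 4 were called higher. Ogn was at 118 and 91.6 CPM against 104 and 103 CPM, so that by CPM it was lower in replicate 3. With scaling by total UMIs, Ogn stood at 0.0041 and was not called. The members' levels of these 4 genes ranged widely, from 10.1 and 9.85 CPM for Aspn to 4979 and 4905 CPM for Omd. Both stretches hold families of related genes. Because they were picked from these values, no test is attached to the neighbourhood.

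Most bone matrix and osteocyte genes were higher in Ibsp-high cells than in Ibsp-low chondrocytes. Of 9 tested genes of the osteoblast and osteocyte list, 7 were higher and 1, Cdh11, was lower (median log2 fold change 1.58), and 6 were higher with scaling by total UMIs, where the Ifitm5 call was lost. Sparc, which encodes osteonectin, was at 87468 and 86689.9 CPM against 33164 and 32438 CPM, a log2 fold change of 1.69 ± 0.11. Col1a1 was at 969.6 and 1077 CPM against 336 and 496 CPM, far from the 112085 and 98458 CPM of osteoblast-like cells. Only 15 members in replicate 2 (2.11%) and 36 in replicate 3 (2.79%) had Col1a1 at 1% of UMIs or more. The sclerostin gene Sost, a late osteocyte marker, gave no UMI in any member.

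The hypertrophic list was mixed. Of 9 tested genes, 6 were higher and 2 lower, with a median log2 fold change of 1.85. Spp1, Alpl, Mef2c, Col10a1, Mmp13 and Dlx5 were higher, and Runx2 and Runx3 were lower. Spp1 and Col10a1 are markers of the population. Mef2c was at 162 and 132 CPM against 28.2 and 26.6 CPM (log2 fold change 2.71 ± 0.12). Runx3 fell by 3.18 ± 0.12 and Runx2 fell by 1.69 ± 0.13 on the log2 scale. For each gene, the summed levels of both libraries were lower in Ibsp-high cells than in Ibsp-low chondrocytes. Single cells overlapped, with a Runx2 UMI in 34.7% of members and 72.6% of Ibsp-low chondrocytes, as unthinned means of replicates 2 and 3. The Mmp13 difference rested on few UMIs and lost its call with DESeq2 (adjusted p = 0.147) and against all cells below 1% Ibsp (0.0792). Vegfa, the angiogenic signal of hypertrophic cartilage, was at 52.2 and 66.4 CPM against 70.4 and 87.6 CPM and was not called, but was called lower with scaling by total UMIs (-0.42).

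Genes of the growth plate signalling loop moved in both directions. Of 11 hedgehog and PTHrP genes, 2 were higher, Ihh and Pth1r, and 5 were lower, Pthlh, Hhip, Gli3, Gli2 and Ptch1, joined by Smo with scaling by total UMIs. Pth1r, the PTHrP receptor, was at 192 and 177 CPM against 146 and 156 CPM (log2 fold change 0.57 ± 0.11). Ptch1, a receptor and readout of hedgehog signalling, was at 104 and 80.0 CPM against 156 and 125 CPM, and fell by 0.33 ± 0.10. Of 12 tested chondrogenic factor genes, 6 were higher and 5 lower (4 and 6 with scaling by total UMIs). Sox5 and Sox6, the partners of Sox9 in maintaining chondrocytes, fell by 0.40 ± 0.11 and fell by 0.35 ± 0.08 on the log2 scale. Sox9 was at 1375 and 1515 CPM against 1192 and 1372 CPM. The Sox9 call was lost with DESeq2 (adjusted p = 0.212) and without the library block (0.274) and with scaling by total UMIs (0.3603). Foxa2 and Foxa3, forkhead factors of hypertrophic differentiation, rose. Foxa2 was at 9.18 and 16.9 CPM against 1.99 and 2.34 CPM (log2 fold change 2.87 ± 0.28) and Foxa3 at 76.4 and 90.5 CPM against 40.5 and 37.1 CPM (1.40 ± 0.10).

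Cartilage matrix genes separated into a larger set that fell and a smaller set that rose. Of 19 genes, 12 were lower and 5 higher, with a median log2 fold change of -1.04 (14 lower and 3 higher with scaling by total UMIs). Matn3, a matrilin of growth plate cartilage, was at 90.3 and 98.1 CPM against 1371 and 1471 CPM and fell by 3.63 ± 0.11 on the log2 scale (edgeR adjusted p = 1.57e-11). Epyc, the epiphycan proteoglycan of the growth plate, fell by 3.54 ± 0.16. Matn1, another matrilin gene, fell by 2.06 ± 0.23, Ucma, a Gla protein of the upper growth plate, fell by 1.91 ± 0.10, and the type IX collagen gene Col9a1 fell by 1.65 ± 0.10. The genes that rose were Cytl1, Chad, Comp, Snorc and Mia, of which Snorc and Mia were not called with scaling by total UMIs. Chad, chondroadherin, was at 9956 and 9957 CPM against 2633 and 3193 CPM (log2 fold change 2.08 ± 0.18), and Comp, cartilage oligomeric matrix protein, at 10916 and 10509 CPM against 3903 and 4021 CPM. Acan, the aggrecan core protein, was at 1745 and 1896 CPM against 2767 and 2833 CPM and was not called, but was called lower with scaling by total UMIs (-0.62).

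**Figure D3:**
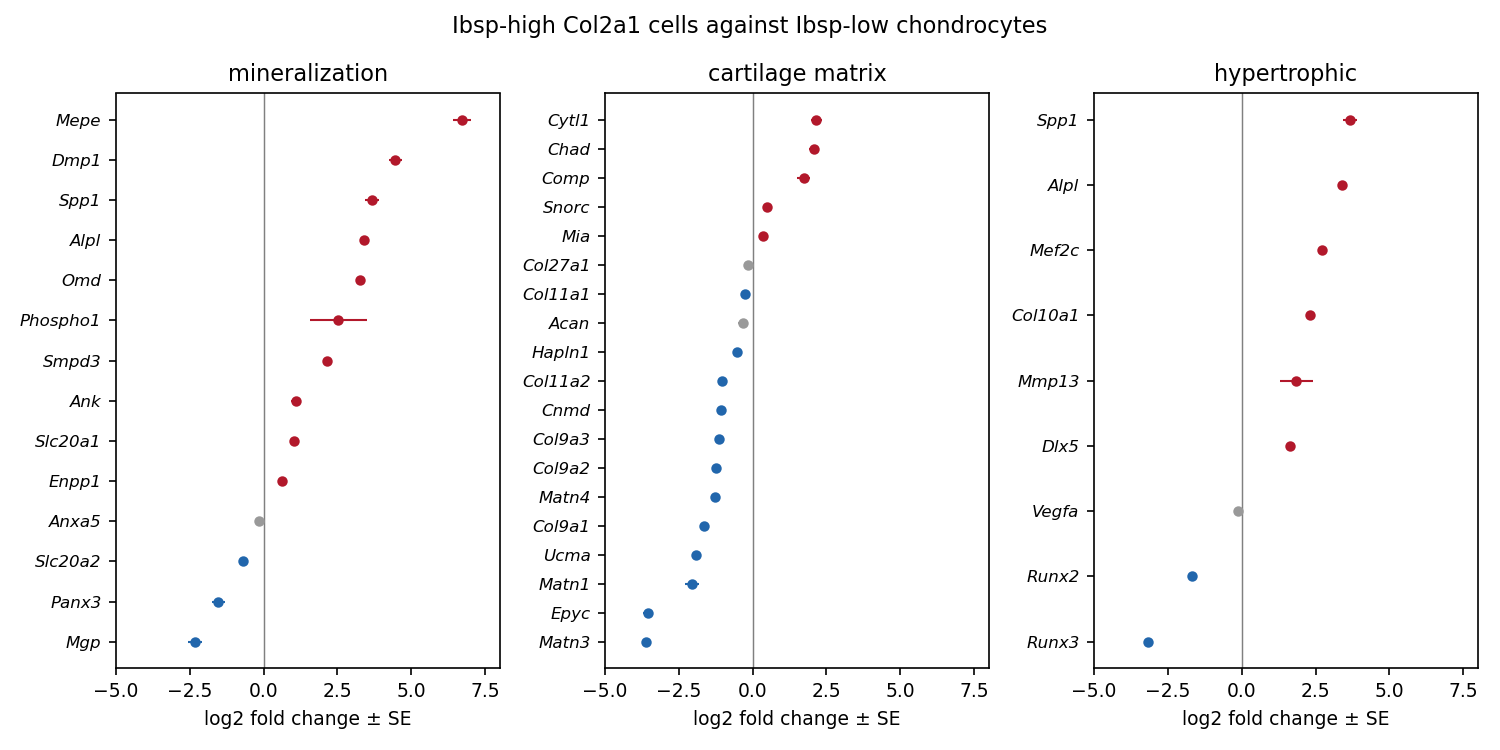
Log2 fold changes (horizontal axes, with SE as error bars) of Ibsp-high Col2a1 cells against Ibsp-low chondrocytes for the tested genes of 3 lists, with called rises in red, called falls in blue and genes not called in grey. The mineralisation list runs from Mepe at 6.72 ± 0.31 to Mgp at -2.32 ± 0.23, most cartilage matrix genes lie left of 0, and in the hypertrophic list Runx2 and Runx3 lie left of 0 while Spp1 and Alpl lie right. With scaling by total UMIs the median gene lies 0.29 further left. The SE carries the spread that the fit shared over genes.

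Among genes of secreted signals and their inhibitors, several rose. Dkk1, an inhibitor of Wnt receptors, was at 39.5 and 39.6 CPM against 0.23 and 0.323 CPM (log2 fold change 7.38 ± 0.35), and the Wnt-binding Frzb at 332 and 303 CPM against 96.9 and 87.5 CPM (log2 fold change 2.07 ± 0.13). Of 12 Wnt genes, 4 were higher and 6 lower (3 and 6 with scaling by total UMIs, where the Dkk3 call was lost), the lower ones including the ligands Wnt4 and Wnt5b and the transcription factors Tcf7 and Lef1. Among BMP genes, 7 of 16 were higher and 2 lower (6 and 6 with scaling by total UMIs), including the ligand Bmp2 (2.12 ± 0.11 on the log2 scale), the ligand Bmp4 (1.87 ± 0.28) and the antagonist Grem1 (1.73 ± 0.15), and Bmp7 fell by 3.33 ± 0.12. Tnfrsf11b, which encodes the osteoclast decoy receptor osteoprotegerin, was at 1278 and 1562 CPM against 298 and 299 CPM (log2 fold change 2.52 ± 0.19). The osteoclast-inducing ligand Tnfsf11 was at 1.08 and 0.111 CPM against 0.69 and 1.62 CPM and was not called. Timp3, a metalloproteinase inhibitor, was at 1073 and 1333 CPM against 379.6 and 372 CPM (log2 fold change 1.95 ± 0.21), and the membrane collagenase Mmp14 fell by 2.06 ± 0.12.

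Of the leucine-rich proteoglycans, 8 of 11 tested were higher, and 5 with scaling by total UMIs, where the calls of Bgn, Lum and Ogn were lost. Omd rose most (3.28 ± 0.15), then Chad, then Dcn, the collagen-binding decorin, at 6285 and 6387 CPM against 1907 and 2095 CPM (1.95 ± 0.11), and Epyc and Prelp were lower. Of 12 cell cycle genes, 4 were higher and 6 lower, and 2 were higher with scaling by total UMIs, where Cdkn1b and Pcna lost their calls and Pcna changed sign (-0.06). Mki67, a marker of dividing cells, was at 2.02 and 2.43 CPM against 45.4 and 28.8 CPM and fell by 3.72 ± 0.22 on the log2 scale, and Ccnb1, Cdk1 and Top2a also fell. Cdkn1a, an inhibitor of cell cycle entry, rose by 1.09 ± 0.09. None of 7 ion and water transport genes rose and 5 fell. Of the carbonic anhydrase genes, Car12 fell by 3.26 ± 0.25 and Car2 fell by 2.94 ± 0.33.

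The largest changes among better-expressed genes lay partly outside these lists. Pdzrn4, a ring finger protein with PDZ domains, was at 137 and 115 CPM against 7.51 and 6.3 CPM (log2 fold change 4.47 ± 0.16). Ogfrl1 rose by 3.93 ± 0.15, Cp, the copper-carrying ferroxidase ceruloplasmin, by 3.48 ± 0.15, Lox, the collagen cross-linking lysyl oxidase, by 3.39 ± 0.12, Dio2, the deiodinase that activates thyroid hormone, by 2.99 ± 0.17, and the prostacyclin synthase gene Ptgis by 2.90 ± 0.10. AW112010, Lbhd2 and Sparcl1 completed the 12 largest rises with Spp1, Alpl and Omd. The largest falls were C1qtnf3, a secreted C1q and TNF related protein of cartilage, at 5.53 and 3.65 CPM against 133 and 122 CPM, and Luzp2, Bpifb1, Il17b, Tmcc3, Fxyd2, Ccnd1 and Pcp4. Ccnd1 encodes cyclin D1, which drives entry into the cell cycle, and it fell by 3.73 ± 0.12 on the log2 scale, from 174 and 219.7 to 10.3 and 13.9 CPM.

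The second comparison set Ibsp-high cells against 2292 Prkg2 chondrocytes, Col2a1 cells with Ibsp below 1% and at least 3 UMIs of Prkg2, a kinase gene needed for growth plate hypertrophy. A gene whose level goes with Ibsp or Prkg2 had to differ by this choice. Here 4104 (27.6%) of the 14886 genes were higher and 4219 (28.3%) lower, and with scaling by total UMIs 2722 (18.3%) and 6284 (42.2%). Of 19 cartilage matrix genes, 14 fell and 3 rose, with a median log2 fold change of -1.13. Epyc was at 5.53 and 6.31 CPM against 234 and 207 CPM and fell by 4.93 ± 0.15 on the log2 scale. C1qtnf3 fell by 5.59 ± 0.13, the sodium pump regulator Fxyd2 fell by 5.03 ± 0.15, and Tnc, the tenascin C gene, fell by 4.63 ± 0.34, and Tafa2, Bpifb1, Syt8 and Il17b were the remaining largest falls. Panx3 was at 47.5 and 35 CPM in Prkg2 chondrocytes and fell by 3.79 ± 0.18.

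All 5 superficial cartilage genes rose against Prkg2 chondrocytes, and all but Gdf5 with scaling by total UMIs. Prg4 was at 8893 and 8461 CPM against 694 and 1516 CPM (log2 fold change 3.38 ± 0.31), Wif1, a secreted Wnt inhibitor of articular cartilage, at 2901 and 2638 CPM against 116 and 166 CPM (4.60 ± 0.22), and Myoc at 325 and 342 CPM against 10.9 and 17 CPM (4.91 ± 0.16). Cilp and Gdf5 rose by 2.01 ± 0.17 and 1.58 ± 0.54. Against Ibsp-low chondrocytes, 2 of the 5 rose, Wif1 and Myoc, and Prg4 differed by 0.06 ± 0.28 and was not called. Prg4 is also among the transcripts found in cells that should lack it, at 609 and 2869 CPM in cells with Ptprc UMIs. The largest rises against Prkg2 chondrocytes included Sparcl1 (5.41 ± 0.22), Pdzrn4, Omd (4.998 ± 0.17), Cp, Myoc, Wif1, Grem1 (4.60 ± 0.19), Col8a1, Cytl1, Frzb and Ptgis.

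The mineralisation list moved against Prkg2 chondrocytes with 10 higher and 3 lower of 14, at a median of 1.22, and the hypertrophic list with 5 higher and 3 lower of 9. Alpl was at 164 and 167 CPM, Spp1 at 236 and 578 CPM, Runx2 at 389 and 521 CPM and Runx3 at 179 and 166 CPM in Prkg2 chondrocytes. Ihh was at 4.59 and 4.32 CPM in Ibsp-high cells against 3.68 and 0.901 CPM (edgeR adjusted p = 0.0133), and lost its call with DESeq2 (adjusted p = 0.151). Pth1r fell by 0.46 ± 0.11 on the log2 scale.

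The third comparison was with 732 osteoblast-like cells, defined by Bglap, the osteocalcin gene, at 1% of UMIs or more with Col2a1 below 1%. The rules thus separated these cells from the members by Col2a1 and by the Bglap limit. A gene whose level goes with either had to differ, so the cartilage and bone gene counts below partly reflect the choice of cells. Ibsp itself was at 41198 and 40064 CPM in Ibsp-high cells and 2336 and 3895 CPM in osteoblast-like cells, as a description. Of the genes tested, 3480 (23.4%) were higher and 2999 (20.1%) lower in Ibsp-high cells, with a median over all genes of 0.12 on the log2 scale. Osteoblast-like cells had fewer UMIs per cell, with medians of 2820.5 and 1718.

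Most bone-forming genes other than Ibsp stayed far below their osteoblast-like level. Of 9 tested osteoblast and osteocyte genes, 7 were lower and 2 higher, Mepe and Sparc, and the median log2 fold change was -4.42. Col1a1 fell by 6.59 ± 0.25 on the log2 scale and Ifitm5, a membrane protein of mineralising osteoblasts, fell by 7.27 ± 0.21. The osteogenic factor gene Sp7 was at 19.4 and 19.3 CPM against 136 and 151 CPM and fell by 2.80 ± 0.14. The largest falls were led by Insc, at 0 and 0.332 CPM against 148 and 113 CPM, and BC055402, at 0.135 and 0.111 against 70.0 and 45.8 CPM, both with at most 3 UMIs in Ibsp-high cells, so that no fold is given. Car3, a carbonic anhydrase gene, fell by 8.43 ± 0.26, the amino acid carrier Slc36a2 fell by 8.40 ± 0.29, and Cdh2, the N-cadherin gene, fell by 8.19 ± 0.16, with Adgrd1, Fhod3 and Col22a1 completing the 8.

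Most mineralisation genes were nevertheless higher in Ibsp-high cells. Of 14 in the list, 9 rose and 3 fell, Phospho1, Dmp1 and Smpd3. Alpl was at 1073 and 1052 CPM against 284 and 350.2 CPM (log2 fold change 1.84 ± 0.11), and Spp1 at 4489.5 and 3811 against 1985 and 2416 CPM (1.04 ± 0.23). Omd rose by 4.09 ± 0.17 and Enpp1 by 2.59 ± 0.16. Cartilage matrix genes rose in 14 of 19 cases (median 2.68), including Acan by 3.12 ± 0.20 and Hapln1 by 2.94 ± 0.14. The Col2a1 limits of both rules favoured such rises. Sox9, the master factor of chondrocytes, was at 104 and 234 CPM in osteoblast-like cells and rose by 3.23 ± 0.18. The largest rises held Clec3a, a cartilage lectin (4.70 ± 0.15), Mfge8, a milk fat globule protein gene (4.62 ± 0.16), the sterol synthesis enzyme gene Idi1 (4.61 ± 0.22), Col10a1 (4.37 ± 0.15), Crispld1, Ecm2, Sbsn and Pdzrn4. Lbhd2, Col8a1 and AW112010 had no more than 3 UMIs in osteoblast-like cells and stood at 62.2 and 59.5 CPM, 57.9 and 54.2 CPM and 38.7 and 64.6 CPM in Ibsp-high cells, and no fold is given.

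Col10a1 was spread very unevenly over the members. It had a UMI in 21.5% of members in replicate 2 and 25.6% in replicate 3. With each cell thinned to 1000 UMIs the shares were 9.58% (95% interval 7.51 to 11.98%) and 12.4% (10.6 to 14.3%), against 3.13 and 4.95% of Ibsp-low chondrocytes. Cells with Ptprc UMIs, which should lack the gene, gave 0 of 58 and 0 of 71 thinned cells, which allows up to 5.17 and 4.23% as 3 cells of the total and up to 6.16 and 5.06% by the exact interval, and 8.62 and 9.86% unthinned, at median depths of 21655.5 and 12908 UMIs. The 10 members with the most Col10a1 UMIs held 52.8% of them in replicate 2 and 44.7% in replicate 3. A group of 12 and 30 members had Col10a1 at 0.5% of UMIs or more, a limit set after the values were seen. Without them the members' level was 138 and 182 CPM in place of 304 and 484 CPM. Most kept cells above that limit were not members, since only 12 of 68 and 30 of 119 of them met the rule. The others had Prg4 at 57289 and 73565 CPM, against 4739 and 13304 CPM in the members above the limit. Ihh was at 42.6 and 0 CPM and Mmp13 at 344 and 0 CPM in those other cells.

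Members with any Col10a1 UMI, 153 and 330 cells, were compared with the 559 and 961 members with none. Median depths were 11036 against 10407 UMIs in replicate 2 and 6979.5 against 6759 in replicate 3. Col10a1 itself was left out of the fit, and a gene whose level goes with it had to differ. Of 11255 genes tested, 276 (2.45%) were higher and 168 (1.49%) lower in the cells with Col10a1. These 2 counts depended on the test, with 64 higher and 28 lower by DESeq2, 88 higher and 57 lower without the library block, and 210 higher and 393 lower with scaling by total UMIs. Spp1 was at 9038 and 5964 CPM against 3160.3 and 3048 CPM (log2 fold change 1.33 ± 0.07, edgeR adjusted p = 1.87e-15). The contrast was larger in replicate 2 than in replicate 3, which the SE does not measure. Lox was at 192 and 165 against 69.8 and 70.5 CPM (1.43 ± 0.09), and the matricellular gene Smoc2 at 615 and 657 against 280.3 and 332 CPM (1.15 ± 0.07). Among signal genes, 3 of 16 BMP and 2 of 10 Wnt genes were higher, 1 Wnt gene, Notum, was lower, and of 7 FGF and IGF genes Igfbp4 and Igfbp5 were lower. The ligand Bmp6 rose by 1.34 ± 0.12, Dkk1 by 1.22 ± 0.14, and Stc2, the stanniocalcin hormone gene, by 1.24 ± 0.12. F13a1, a clotting transglutaminase subunit also made by hypertrophic cartilage, rose by 1.84 ± 0.16, and AW112010 and Ddit4l were the other large rises. Serpina1b rose most (2.37 ± 0.11) with Serpina1a and Serpina1d, antitrypsin genes that are near-identical copies, so that the share of each is uncertain. Of the 20 genes named for this comparison, Ddit4l, Col8a1 and Has1 lost their call with DESeq2 (adjusted p = 0.0878, 0.433 and 0.0894).

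The cartilage matrix list had 7 of 19 genes higher and 0 lower in members with Col10a1 by edgeR (4 higher and 2 lower with scaling by total UMIs), namely Matn1, Hapln1, Chad, Col9a2, Cytl1, Acan and Comp. The largest falls were other extracellular genes. Col8a1, a short-chain collagen gene, was at 7.16 and 26.2 CPM against 72.7 and 64.2 CPM and fell by 1.83 ± 0.22 on the log2 scale. Ogn, osteoglycin, fell by 1.11 ± 0.12, Col12a1, a fibril-associated collagen gene, fell by 0.99 ± 0.08, and Pcolce, an enhancer of procollagen processing, fell by 1.00 ± 0.08, with Olfml3, Ism1, Has1 and Pde4d completing the 8. Of 8 tested hypertrophic genes, 4 were higher, Spp1, Vegfa, Mef2c and Alpl. Only the Spp1 call of these held with DESeq2 and without the library block. Ihh was at 7.16 and 11.8 CPM against 3.84 and 1.65 CPM and Runx2 at 111 and 93.4 against 100.1 and 111 CPM, the first called and the second not. The neutrophil genes S100a8 and S100a9 were also called higher, mostly from replicate 3. The haemoglobin genes Hbb-bs and Hbb-bt were called higher too, at 21.5 and 6.34 against 1.74 and 4.20 CPM and at 8.95 and 3.38 against 0.698 and 2.10 CPM, and their part in the result was not tested. Of the whole haematopoietic list, the summed level in all members was 6.21 CPM in replicate 2 and 59.7 CPM in replicate 3, and its part in the result was not tested.

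**Figure D4:**
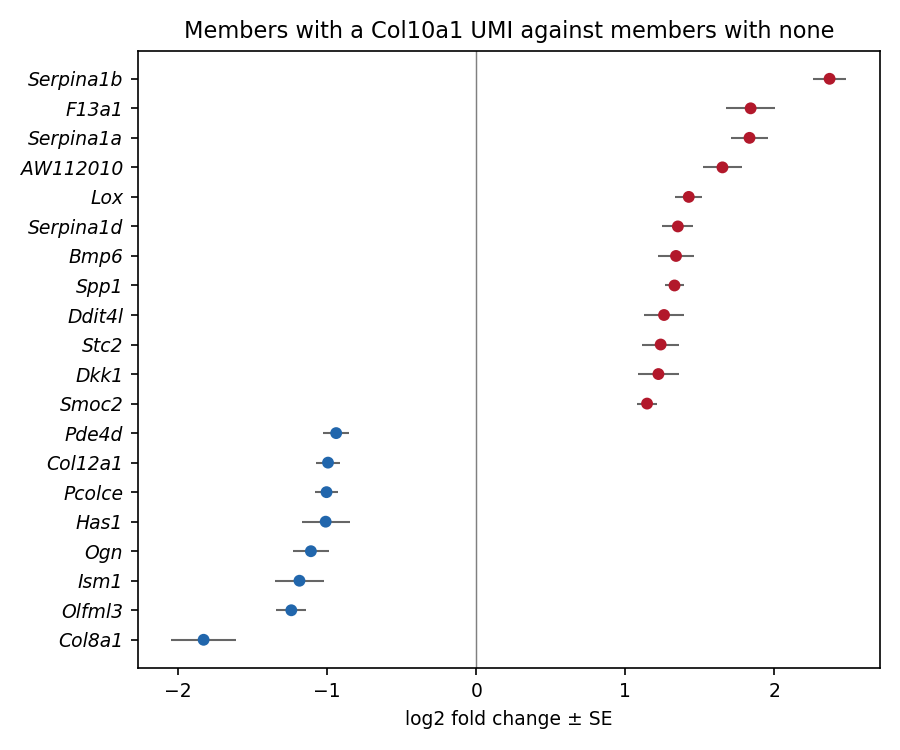
Log2 fold changes (horizontal axis, with SE as error bars) of members with a Col10a1 UMI against members with none, for the 12 largest rises (red) and the 8 largest falls (blue) among better-expressed genes. Values run from 2.37 ± 0.11 for Serpina1b to -1.83 ± 0.22 for Col8a1. The SE carries the spread that the fit shared over genes and does not measure the gap between the 2 libraries.

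Cytl1 separated the members into cells with much and cells with almost none. In replicate 2, 318 members (44.7%) had Cytl1 at 0.5% of UMIs or more and 291 (40.9%) had less than 0.1%, with 103 between. In replicate 3 the numbers were 624 (48.3%), 486 (37.6%) and 181. Both limits were set after the values were seen, the ranges are not cell types, and their levels are given without a test. Median depths in the 2 ranges were 10763.5 and 10604 UMIs in replicate 2, and 6661 and 7141.5 in replicate 3. Thinned to 1000 UMIs, a Cytl1 UMI was found in 65.9 and 70.9% of members, and in 8.62 and 21.1% of cells with Ptprc UMIs, and the part of free RNA in low Cytl1 counts was not tested.

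Transcripts of the joint surface genes Prg4 and Cilp were higher in Cytl1-rich members, and those of Alpl, Spp1, Pth1r and Runx2 were higher in Cytl1-poor members. The rule genes Ibsp and Col2a1 were higher in Cytl1-poor members too, Ibsp at 46867 and 46084 against 35713 and 36269 CPM. Alpl and Spp1 also went up and Prg4 down with Ibsp, and whether the Cytl1 ranges differ apart from that gradient was not tested. Prg4 was at 14870.3 and 13970.4 CPM in Cytl1-rich members against 3414 and 2595 CPM in Cytl1-poor ones, and Cilp, an intermediate-layer cartilage protein, at 536 and 737 against 48.8 and 81.1 CPM. Chad was at 11975 and 11689 against 7798 and 7916 CPM. Alpl was at 749 and 793 CPM in Cytl1-rich against 1449.9 and 1391 CPM in Cytl1-poor members, and Spp1 at 2335 and 3092 against 6574 and 4836 CPM. Pth1r was at 119.7 and 117 against 275 and 255 CPM, Runx2 at 65.2 and 59.1 against 144 and 147 CPM and Tnni2 at 53.9 and 132 against 401 and 356 CPM. Col10a1 lay on the other side, at 474 and 693 CPM in Cytl1-rich against 96.7 and 285 CPM in Cytl1-poor members. Omd did not separate the ranges, at 4888 and 5012 against 4884 and 4684 CPM. Col1a1 was at 192 and 558 against 1973 and 1683 CPM, and Bglap at 61.8 and 105 against 303 and 335 CPM, higher in the Cytl1-poor range in both libraries.

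**Figure D5:**
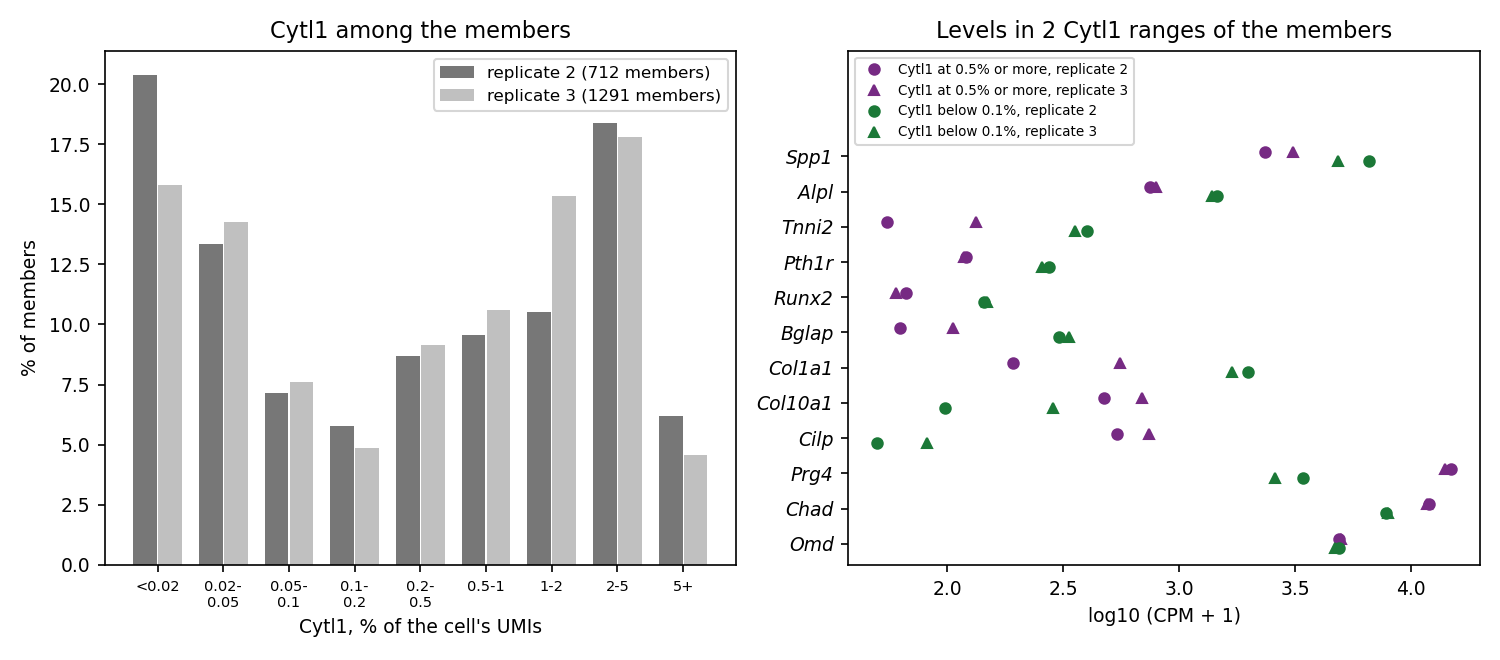
Left, percent of the members of replicates 2 and 3 (vertical axis, from 0) in 9 ranges of the Cytl1 share of UMIs. Right, log10 of CPM plus 1 for 12 genes in members with Cytl1 at 0.5% or more (purple) and below 0.1% (green), where Prg4, Cilp, Chad and Col10a1 lie higher in purple and Spp1, Alpl, Tnni2, Pth1r, Runx2, Bglap and Col1a1 higher in green.

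The 4 members of replicate 1 lay in the Cytl1-poor range. They had 578 to 5509 Ibsp UMIs, 211 to 1037 Col2a1 UMIs and 68 to 994 Col1a1 UMIs each, while Cytl1 gave 1 UMI in 1 cell and none in the other 3. In other genes they were unlike most members. Col1a1 made up 1% of UMIs or more in 3 of the 4, against 2.11 and 2.79% of members in replicates 2 and 3. Omd gave only 6 to 21 UMIs in cells of 6944 to 30807 UMIs, a lower share than in the summed members of replicates 2 and 3. With so few cells they entered no comparison.

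Transcripts of the sort markers were low in the members. Alcam was at 2.43 and 4.54 CPM against 22.3 and 16.7 CPM in Ibsp-low chondrocytes and 39.9 and 37.1 CPM in osteoblast-like cells, and Ly6a, which encodes Sca-1, at 2.02 and 1.99 CPM. The sort read surface protein, which these counts do not measure. Markers of other cells varied in level over replicates 2 and 3. Plasma cell genes summed to at most 0.996 CPM, pericyte genes to at most 1.55 CPM and Schwann cell genes to at most 1.22 CPM. Endothelial genes summed to 13.8 and 20.7 CPM, the Cxcl12, Lepr and Adipoq list to 33.7 and 23.4 CPM, tendon and fibroblast genes to 34.0 CPM in both, osteoclast genes to 91.2 and 92.5 CPM, most of it Ctsk, and haematopoietic genes to 6.21 and 59.7 CPM. Doublet scores of the members, with medians of 0.0392 and 0.0445, were no higher than those of Ibsp-low chondrocytes, at 0.0405 and 0.0445.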

How the data were processed

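Single-cell RNA-seq of 3 libraries of Alcam+Sca-1- BLCs was analysed from the deposited matrices, which hold counts (UMIs) that the authors made per gene and barcode. The submitters' processing notes name Cell Ranger 7.1.0 and mm10, which is GRCm38, and the files list 32285 genes, 38 of whose symbols stand on more than one line. Depth is given as total UMIs per library. The study's methods state more cells in the pooled data than the barcodes deposited here (2606, 7172 and 10529), and the reason is not given in the sources used here. The matrices held no columns of other samples.

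Cells needed 200 genes or more and no more than 20% of UMIs from mitochondrial genes. Doublets were scored with Scrublet (scanpy 1.11.5) and not removed, because its automatic threshold marked 42, 1 and 0 cells in replicates 1, 2 and 3, and so did not work in the 2 libraries that hold the members. The members and all gene lists were chosen with earlier results of these data known. UMIs were summed per library and population for sums of at least 10 cells, and tested with edgeR 4.0.16 (R 4.3.3; glmQLFit and glmQLFTest, TMM, filterByExpr, library as a block) in 1 fit over 4 populations, and in a separate fit for the Col10a1 ranges. The 11 genes that choose any population were left out of the fits. Each population came from the same libraries, so the library is a block. The differences between replicates 2 and 3 in the members correlated at 0.46, 0.30 and 0.15 with those in Ibsp-low chondrocytes, Prkg2 chondrocytes and osteoblast-like cells over 2808 genes. The osteoblast-like sum of replicate 1 has no partner and sets only its own block.

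The genes named beyond the lists are, per comparison, the 12 largest rises and the 8 largest falls past 0.05 with the same direction in both libraries and at least 50 CPM in the higher population, while gene models named Gm or Rik and mt- genes were counted but not named, and a few genes that the rule chose are not reported here. Ddit3, which stands under 2 identifiers, was left out of the lists. Members were to be split into their upper and lower tertiles by Col10a1 share, and since most had none, the upper range is every member with a UMI. On simulated counts, 4-fold changes were recovered in 100% of cases for the 3 population comparisons and in 98% for the Col10a1 ranges, and 2-fold changes in 71, 84, 60 and 53%. The simulation used a fixed spread not estimated from these data, changed only a small set of better-counted genes and held no other population difference. These shares are therefore not the power of the comparisons themselves. Alternatives were DESeq2 1.42.0, RLE scaling, scaling by total UMIs, no filter, no block, other limits on cells, and leaving out each library. Promoter windows and motif counts came from a RefSeq table of GRCm38.p6 and gene coordinates from GENCODE.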

Additional observations from a re-analysis of the deposited data

How the results depend on the processing

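The counts of genes called against the 3 other populations stayed within 1.5 times of 5709, 8323 and 6479 under every alternative run. DESeq2 gave 3937, 6446 and 5893, and the fit without the library block, which ignores the pairing of populations within a library, gave 4564, 7349 and 6355. The Col10a1 ranges were less stable: 444 genes with the block, 145 without it (88 higher and 57 lower) and 92 with DESeq2 (64 and 28), and all 145 and all 92 were among the 444. The cause was not tested. Without replicate 1 the count of that comparison stayed at 444, and without replicate 2 or 3 no residual degrees of freedom were left, so only values were had. Members at 0.5% Ibsp or more made up 12.6 and 15.02% of replicates 2 and 3, and at 2% or more 7.84 and 9.46%. The mean share of members over libraries, 7.79%, ran from 5.37 to 11.6% with 1 library left out. The mean share of members with a Col10a1 UMI was 11.0% at 1000 UMIs (9.58 to 12.4% with 1 library left out), 14.4% at 2000 UMIs and 23.5% unthinned, a depth effect of the measure itself.

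Of 141 genes followed over 1859 values, 1812 kept their direction and their side of the threshold, 29 lost a call, 2 gained one and 16 changed sign, all of the last near 0 or on few UMIs. With 1 library left out in turn, the log2 fold change ran from -0.156 to 0.214 for Fgfr3 against Ibsp-low chondrocytes, and against Prkg2 chondrocytes from -0.330 to 1.19 for Mmp13 and from -0.0519 to 0.176 for Sox9. Between the Col10a1 ranges it ran from -0.0539 to 0.0405 for Fgfr3, from -0.0460 to 0.0623 for Sox9, from -0.235 to 0.155 for Runx2 and from -0.678 to 0.525 for Panx3. Runx2 stood at -0.0107 with no filter, and Panx3 at 1.23 for members at 0.05% Col10a1 or more, an alternative chosen after seeing the data. With scaling by total UMIs, also chosen after seeing the data, Fgfr3 stood at -0.0794 against Ibsp-low chondrocytes, Sox9 at -0.0917 against Prkg2 chondrocytes, and between the Col10a1 ranges Fgfr3 at -0.0465, Sox9 at -0.0252 and Runx2 at -0.0642. None of these 7 differences was called in the comparison as reported. Each comparison rests on 2 libraries, and genes under about 1 CPM in the members are at the limit of depth.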

Other observations

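In further lists the counts stand beside the 17.6% of all genes tested that were higher and the 20.7% that were lower against Ibsp-low chondrocytes (8.84 and 37.6% with scaling by total UMIs). Of 12 genes of the hypoxia and angiogenic list, 5 were higher in Ibsp-high Col2a1 cells than in Ibsp-low chondrocytes by edgeR, Epas1, Bnip3, Pgk1, Ldha and Hif1a (Ldha and Hif1a not with scaling by total UMIs), and Angptl4 was lower. Pgk1, a glycolytic enzyme gene, was at 146 and 143 CPM against 121 and 112 CPM (log2 fold change 0.60 ± 0.08), and Epas1, which encodes an oxygen-regulated transcription factor, at 57.6 and 56.2 against 29 and 26.3 CPM (1.32 ± 0.11). Of 11 secretory pathway genes, 5 were higher (3 higher and 4 lower with scaling by total UMIs), with Creb3l1, a factor for collagen secretion, at 70.3 and 79.8 against 32.8 and 42.2 CPM (1.29 ± 0.10), and Creb3l2 was lower. Of 8 tested FGF and IGF genes, 3 were higher, Igfbp4, Igf2 and Fgfr1, and 2 were lower, Igf1 and Igf1r. Among osteogenic factor genes, Dlx6, Dlx5 and Atf4 were higher and Runx2 was lower, and Sp7 was at 19.4 and 19.3 against 16.5 and 21.2 CPM and not called.

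Of 7 genes of the dissociation stress list, Junb, Egr1 and Fos were higher and Jun was lower than in Ibsp-low chondrocytes, where the calls of Egr1 and Fos were lost with scaling by total UMIs, and the summed level of the list was 6090 and 5764 CPM in the members and 6862 and 4988 CPM in Ibsp-low chondrocytes. Their part in the other differences was not tested. Among the markers of other cells, the Cxcl12, Lepr and Adipoq list was higher, with summed levels of 33.7 and 23.4 CPM in the members against 4.21 and 5.82 CPM, and both Cxcl12 and Lepr were lower in members with a Col10a1 UMI. Of 3 tested haematopoietic genes, S100a8 and S100a9 were called higher, at 2.70 and 21.7 against 1.76 and 2.83 CPM and at 2.43 and 34.3 against 2.45 and 3.88 CPM, with the larger gap in replicate 3. The erythroid list was lower in the members (Hbb-bt and Hba-a2), with sums of 12.01 and 10.96 CPM against 3.91 and 94.9 CPM in Ibsp-low chondrocytes, so that the difference comes from replicate 3. Of the osteoclast list, Acp5 and Ctsk were higher, at 2.43 and 3.98 CPM and 88.5 and 88.3 CPM, and of the endothelial list Pecam1, at 13.8 and 20.7 CPM against 15.4 and 15.4 CPM. Of the tendon and fibroblast list, Dpt, Mkx and Scx were higher. With scaling by total UMIs the calls of Acp5, Pecam1 and Scx were lost. The tendon and fibroblast list summed to 34.0 CPM in both libraries.

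Members had fewer genes than Ibsp-low chondrocytes at equal depth. Thinned to 1000 UMIs, the median was 512.5 and 519 genes in members and 586 and 589 genes in Ibsp-low chondrocytes.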
